A study of Mus musculus with 78 samples.

Results

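The hippocampal field marker genes are 8 genes listed as markers of the parts of the hippocampus, a list drawn up with earlier results of these data known: Prox1, C1ql2 and Dsp for the dentate gyrus, Wfs1 and Fibcd1 for field CA1, Rgs14 and Amigo2 for field CA2, and Bok for field CA3. All 8 were found by symbol among the 55367 symbols of the deposited count tables. Their counts were read in 78 poly(A) RNA-seq libraries from 7 dissected brain regions of 12 adult C57BL6/J mice, of which 6 carried a constitutive CRISPR deletion spanning exons 3 to 7 of Acss2 (KO) and 6 did not (WT), with 3 mice of each sex and genotype. The product of Acss2 converts acetate to acetyl-CoA. Every mouse, KO or WT, was housed singly and had voluntary access to 15% ethanol in the drinking-in-the-dark procedure: after 1 week of habituation there were sessions of 2 h on the first days and of 4 h on day 4, with water beside the ethanol in the first week of sessions and ethanol alone in the next. No mouse without ethanol was analysed here, so each comparison is between regions, genotypes or sexes of drinking mice. Among males, mice 1, 2 and 10 were KO and mice 3, 12 and 13 were WT. Among females, mice 4, 5 and 6 were KO and mice 11, 23 and 24 were WT. The dorsal hippocampus, the ventral hippocampus and both striatal regions had 12 libraries each, the amygdala and cortex 11 each, and the prefrontal cortex 8. The deletion is present in all cells, and the labels do not say whether the KO mice descend from more than a single founder.

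The hippocampus is a layered circuit in which granule cells of the dentate gyrus send mossy fibres to the pyramidal cells of CA3, CA3 projects to CA1, and CA2 lies between them. Each field has its own set of expressed genes, and its cells also change gradually from the dorsal (septal) to the ventral (temporal) pole. Prox1 is a homeobox transcription factor needed for granule cell identity, C1ql2 is a secreted C1q-family protein of mossy fibre synapses, and Dsp is desmoplakin, a desmosomal linker protein found in granule cells. Wfs1 is an endoplasmic reticulum membrane protein that marks dorsal CA1 pyramidal cells and is also made in the striatum and amygdala, and Fibcd1 is a membrane receptor that binds acetylated sugars. Rgs14 is a regulator of G protein signalling that restrains plasticity in CA2, Amigo2 is a leucine-rich-repeat adhesion molecule, and Bok is a Bcl-2 family protein. The libraries were made from whole dissected regions and not from single fields, so fewer cells of a field and less RNA per cell cannot be told apart in any value below.

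The 3 dentate gyrus genes moved together across mice, as described further on, and the 250 bases before their annotated starts are shown because this is the sequence in which shared motifs were looked for. The sequences are from RefSeq on GRCm38.p6, read 5′ to 3′ on the strand of the gene, and capitals mark the E-box CAGATG, a site letter pattern of basic helix-loop-helix factors. The C1ql2 window lies at chr1:120340332-120340581 on the plus strand, the Dsp window at chr13:38151044-38151293 on the plus strand, and the Prox1 window, which belongs to the more upstream of its 2 listed starts, at chr1:190170828-190171077 on the minus strand.
C1ql2: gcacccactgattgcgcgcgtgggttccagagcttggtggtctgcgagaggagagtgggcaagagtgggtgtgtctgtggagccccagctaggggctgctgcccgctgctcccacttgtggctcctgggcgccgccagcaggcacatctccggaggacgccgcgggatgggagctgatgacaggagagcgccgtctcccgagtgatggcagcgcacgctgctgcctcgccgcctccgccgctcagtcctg
Prox1: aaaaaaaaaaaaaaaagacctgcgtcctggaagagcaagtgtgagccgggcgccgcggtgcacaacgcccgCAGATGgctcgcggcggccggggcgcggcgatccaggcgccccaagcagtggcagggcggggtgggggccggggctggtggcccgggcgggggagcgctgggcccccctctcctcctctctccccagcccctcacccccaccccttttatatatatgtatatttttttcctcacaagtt
Dsp: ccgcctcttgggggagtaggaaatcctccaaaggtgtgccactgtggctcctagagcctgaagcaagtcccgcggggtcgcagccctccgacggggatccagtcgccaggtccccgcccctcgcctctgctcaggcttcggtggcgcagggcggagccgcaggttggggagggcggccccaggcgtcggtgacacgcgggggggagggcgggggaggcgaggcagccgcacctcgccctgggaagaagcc
CAGATG, read on either strand (CATCTG), was present in the Prox1 window, 179 bases before the start, and these letters were not in the C1ql2 or the Dsp window. CAGCTG, which reads the same on both strands and does not overlap CAGATG, was in none of the 3. The window of the other listed Prox1 start, which is not shown, held neither motif. Of 32851 promoter windows of the same length in the RefSeq table, 14.4% held CAGATG and 13% held CAGCTG, so the match in Prox1 is a description of the letters and no more.

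The total count of a library ranged from 4454420 to 14487778 in the dorsal hippocampus, amygdala and both striatal regions, and from 629635 to 1228828 in the ventral hippocampus, cortex and prefrontal cortex. The sample numbers in the column names start again for the ventral hippocampus, cortex and prefrontal cortex, and what the separate number series stand for is not stated. Depth, number series and the dorsal or ventral position therefore cannot be told apart. The same holds for every comparison of a deeper with a shallower region. The floor below which a level cannot be read, 3 counts, corresponds to 0.207 to 0.673 CPM in the deeper libraries and 2.44 to 4.76 CPM in the shallower ones (counting error only). CPM is the usual rescaling of a count by the column total of its library. Acss2, the deleted gene, separated the genotypes in all 78 libraries, at 0.971 to 13.96 CPM in KO and 35.9 to 73.8 CPM in WT. Pairs of libraries from the same hippocampal group differed by 1.72 to 81.2 times the variance that counting alone gives per gene (24 pairs), and none was a copy of another.

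A pair of hippocampal libraries stood apart, and the results that rest on them are given with and without them. The dorsal hippocampus library of female WT mouse 23 had the lowest dentate gyrus values of that region (Prox1 57.7 CPM, C1ql2 36.1 CPM, Dsp 27.1 CPM) beside the highest summed level of 6 oligodendrocyte genes (15364 CPM, against a median of 5137 over the 12 libraries), of 5 choroid plexus genes (4794 CPM, against a median of 58.6) and of 3 thalamic genes (459 CPM, against a median of 113). The ventral hippocampus library of female KO mouse 6 had 1079 CPM of Ppp1r1b, the phosphoprotein gene of striatal projection neurons, where the other 11 libraries had 32.9 to 65.2 CPM, and 139 CPM of the dopamine receptor gene Drd1, where the others had 1.21 to 16.5 CPM. Its dentate gyrus values were the lowest of the ventral hippocampus (Prox1 29.1 CPM, C1ql2 8.31 CPM, Dsp 6.23 CPM). The part of these other tissues in the values was not tested.

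The 3 dentate gyrus genes had their highest levels in the dorsal hippocampus, their next highest in the ventral hippocampus, and low levels in the other 5 regions. Prox1 was at 222 ± 101 CPM (SD, n = 12) in the dorsal and 111 ± 66 CPM (n = 12) in the ventral hippocampus. Prox1 then followed at 26.3 ± 7.25 CPM in the dorsal striatum, 23.5 ± 13.7 in the ventral striatum, 19.8 ± 7.47 in the amygdala, 15.4 ± 6.33 in the prefrontal cortex and 11.5 ± 5.37 in the cortex, so that a low Prox1 level was measured in every region. C1ql2 was at 197 ± 86.6 CPM in the dorsal and 91.3 ± 61 CPM in the ventral hippocampus. Outside the hippocampus C1ql2 was highest in the amygdala (9.91 ± 5.8 CPM) and at 3.28 CPM or less on average elsewhere. Dsp was at 152 ± 69.4 CPM in the dorsal and 44.7 ± 35.1 CPM in the ventral hippocampus, and its mean in the other 5 regions did not exceed 2.43 CPM. In the cortex the median of C1ql2 and of Dsp was 0 CPM, and the highest cortical library reached 2.79 CPM for C1ql2 and 1.1 CPM for Dsp, both of which are within the floor of those libraries. The ranges of neighbouring regions in each of these orders overlapped, including those of the dorsal and ventral hippocampus. The plot of the 8 genes over 7 regions shows the hippocampal libraries of these 3 genes above most of the others.

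**Figure D1:**
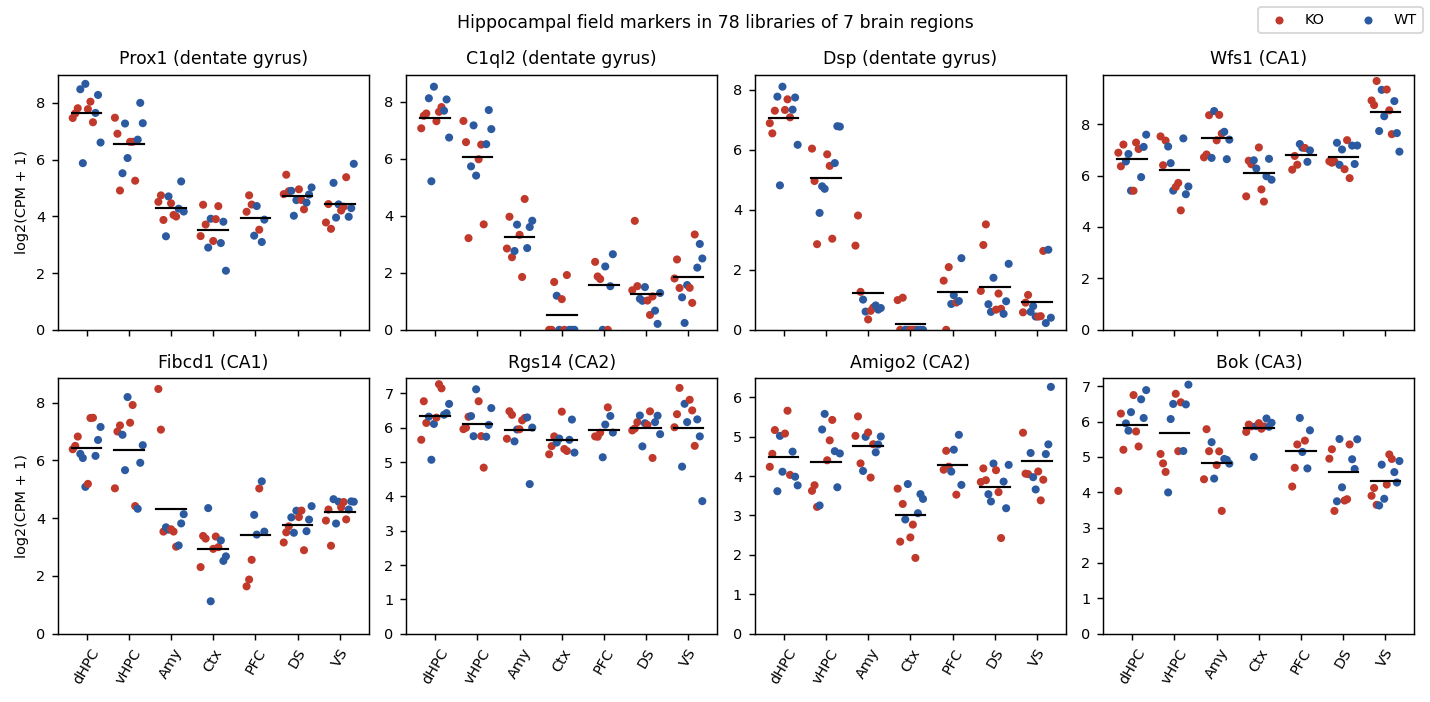
Each panel plots log2(CPM + 1) of 1 gene in 78 libraries, with a point per library (red KO, blue WT) and a line at the mean of each region; dHPC and vHPC are dorsal and ventral hippocampus, Amy amygdala, Ctx cortex, PFC prefrontal cortex, DS and VS dorsal and ventral striatum. Prox1, C1ql2, Dsp and Fibcd1 are highest in the hippocampal columns, Wfs1 is highest in the ventral striatum, and Rgs14 differs little between regions.

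The CA1 genes did not share an order of regions. Fibcd1 was highest in the ventral hippocampus (113 ± 87 CPM) and the dorsal hippocampus (97 ± 48 CPM), which differed by less than their spread. Fibcd1 was at 7.65 to 18.4 CPM on average in the cortex, prefrontal cortex and both striatal regions. Wfs1 was highest in the ventral striatum (409 ± 216 CPM, range 120.7 to 817 CPM) and next in the amygdala (197 ± 98.7 CPM). The levels of Wfs1 in the prefrontal cortex (112 ± 27 CPM), dorsal striatum (109 ± 35 CPM), dorsal hippocampus (109 ± 46.9 CPM), ventral hippocampus (89.7 ± 58.8 CPM) and cortex (74 ± 32 CPM) followed with overlapping ranges. By region, therefore, Wfs1 did not mark the hippocampus in these libraries.

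The amygdala mean of Fibcd1, 53.4 ± 107 CPM, came from 2 of 11 libraries. Female KO mice 4 and 5 had 355 and 133 CPM of Fibcd1, and the other 9 amygdala libraries had 7.07 to 16.6 CPM. The same pair of libraries held the highest Ttr, the transthyretin gene of the choroid plexus (5234 and 8637 CPM, against 5.56 to 452 CPM in the other 9), and all 5 choroid plexus genes were above their range in the other 9. Of the members, Dsp was also above the other amygdala libraries in both (5.99 and 13 CPM against 0.271 to 1.4 CPM), Rgs14, Amigo2 and Bok were above them in mouse 5 and not in mouse 4, and Prox1, C1ql2 and Wfs1 were inside their range in both. Of the further genes of the 4 fields, Grik4 (41.9 and 61.7 CPM against 8.53 to 31.3 CPM) and Stard5 (11.98 and 19.4 CPM against 2.02 to 5.24 CPM) were above the other 9 libraries in both. Mpped1 (239 CPM against 67.6 to 177 CPM), Pou3f1 and Avpr1b were above them in mouse 4 alone, Lct, Tdo2, Glis3, Iyd and Nectin3 in mouse 5 alone, and Plk5 and Coch were below them in mouse 4. In the dorsal striatum Ttr reached 6231 CPM and Fibcd1 did not exceed 20.4 CPM. The dorsal hippocampus library of mouse 23, with 4518 CPM of Ttr, had 66.8 CPM of Fibcd1, inside the range of the other 11. The part of choroid plexus tissue in these amygdala values was not tested.

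**Figure D2:**
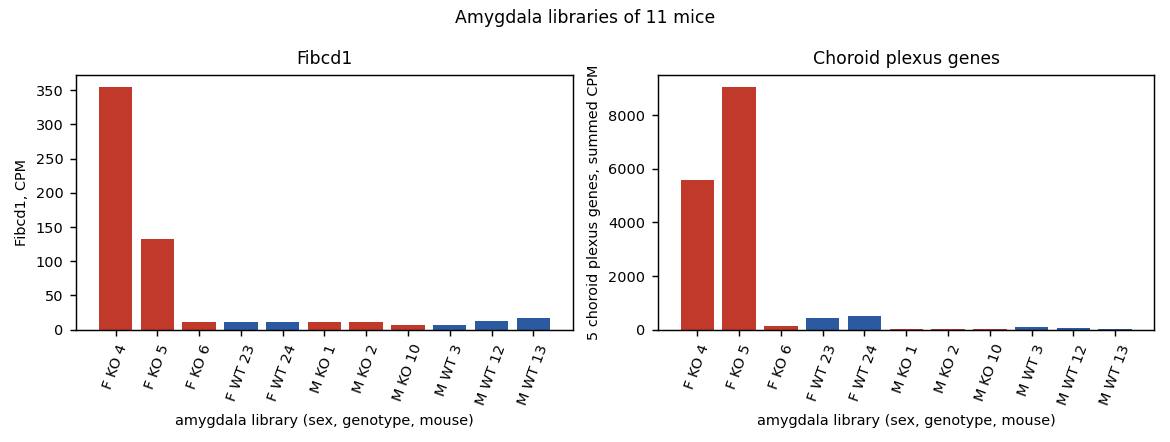
Bars give Fibcd1 in CPM (left) and the summed CPM of 5 choroid plexus genes (right) in 11 amygdala libraries, named by sex (F, M), genotype and mouse; red is KO and blue WT. The libraries of female KO mice 4 and 5 are the highest in both panels, with Fibcd1 at 355 and 133 CPM.

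The CA2 and CA3 genes were spread more evenly over the brain. Rgs14 ranged from a mean of 50.8 ± 16.2 CPM in the cortex to 87.4 ± 34.7 CPM in the dorsal hippocampus, and the ventral striatum and ventral hippocampus both had a mean of 73.1 CPM. Amigo2 was highest in the amygdala (27.2 ± 8.66 CPM), followed by the dorsal hippocampus (23.6 ± 11.5 CPM), the ventral striatum (23.3 ± 17.9 CPM) and the ventral hippocampus (22.7 ± 13.2 CPM), and was lowest in the cortex (7.71 ± 3.34 CPM). Bok was highest in the dorsal hippocampus (66.2 ± 30.4 CPM), the ventral hippocampus (62.1 ± 39 CPM) and the cortex (55.9 ± 9.18 CPM), and lowest in the ventral striatum (20.2 ± 7.56 CPM). Within the hippocampus the spread of Bok between mice was wide, from 15.4 to 118 CPM dorsally and from 15 to 131 CPM ventrally, while the cortex stayed between 31 and 67 CPM. Neighbouring regions in all 3 orders overlapped.

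Each hippocampal region was compared with each of the other 5 regions in a single edgeR quasi-likelihood fit over all 78 libraries, with the 4 sex-by-genotype groups as covariates and Benjamini-Hochberg adjustment over 16110 genes; a gene was called at an adjusted p under 0.05. Many genes differ between brain regions, so the share of all genes called is given beside each count of members. For the dorsal hippocampus, 5 of 8 members were higher and 1 lower than in the amygdala (35.4% of all genes called), 6 were higher than in the cortex (42%), 6 were higher than in the dorsal striatum (49.6%), 5 were higher than in the prefrontal cortex (33.4%), and 5 were higher and 1 lower than in the ventral striatum (48.9%). For the ventral hippocampus, 5 were higher and 1 lower than in the amygdala (24.3%), 5 were higher than in the cortex (22.2%), 6 were higher than in the dorsal striatum (47.3%), 4 were higher than in the prefrontal cortex (22.8%), and 5 were higher and 1 lower than in the ventral striatum (46.9%). The 10 comparisons share libraries and are not independent of each other.

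Prox1, C1ql2, Dsp and Fibcd1 were higher in all 10 comparisons, and the gene that was lower, in the amygdala and ventral striatum comparisons, was Wfs1. Against the dorsal striatum, the dorsal hippocampus was higher by 3.14 ± 0.25 (log2 fold change ± SE) for Prox1, 6.59 ± 0.42 for C1ql2, 6.19 ± 0.43 for Dsp and 2.87 ± 0.44 for Fibcd1. Wfs1 was lower in the dorsal hippocampus than in the ventral striatum, with a log2 fold change of -1.80 ± 0.27 (edgeR adjusted p = 5.23e-08), and lower than in the amygdala at -0.80 ± 0.27 (adjusted p = 0.0158). Fibcd1 was higher in the dorsal hippocampus than in the amygdala by 1.26 ± 0.45, and by 3.22 ± 0.32 without the amygdala libraries of mice 4 and 5. Bok was higher in the dorsal hippocampus than in the amygdala (1.14 ± 0.25), both striatal regions (1.35 ± 0.25 and 1.78 ± 0.25) and the prefrontal cortex (0.84 ± 0.31), and its difference from the cortex was 0.27 ± 0.28 (adjusted p = 0.461). The Bok call against the prefrontal cortex was lost with DESeq2 size factors (adjusted p = 0.0536), with column totals (0.072) and with the mouse as a block (0.068). Amigo2 was higher in both hippocampal regions than in the cortex (1.67 ± 0.35 and 1.52 ± 0.39) and the dorsal striatum (0.92 ± 0.24 and 0.77 ± 0.28). Rgs14 was called in 1 comparison, dorsal hippocampus against cortex (0.84 ± 0.25, adjusted p = 0.00503). Without the dorsal library of mouse 23 and the ventral library of mouse 6, its difference between dorsal hippocampus and amygdala (0.51 ± 0.22, adjusted p = 0.061) passed as well, at 0.57 ± 0.22 (adjusted p = 0.0341).

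Between the dorsal and ventral hippocampus of the same 12 mice, the 3 dentate gyrus genes were higher dorsally and none of the 5 CA genes was called. With no low-count filter, which called 11.5% of genes, Wfs1 (0.44, edgeR adjusted p = 0.000194) and Rgs14 (0.28, adjusted p = 0.0465) were called higher dorsally as well. The edgeR fit held the 24 hippocampal libraries, with sex-by-genotype groups as covariates, and called 1950 of 13058 genes (14.9%), against 3 of the 8 members. Prox1 in mice 1, 2, 3, 4, 5 and 6 was at 219, 263, 199, 176, 197 and 224 CPM dorsally and at 97.9, 97.8, 103, 177, 119 and 29.1 CPM ventrally. In mice 10, 11, 12, 13, 23 and 24 Prox1 was at 158, 356, 309.7, 96.2, 57.7 and 406 CPM dorsally and at 37.2, 44.9, 255, 155, 153.5 and 65.5 CPM ventrally. Prox1 was thus higher dorsally in 9 of 12 mice; mouse 4 had nearly equal levels, and WT mice 13 and 23 were higher ventrally. The log2 fold change of Prox1, dorsal over ventral, was 1.07 ± 0.31 (adjusted p = 0.0218).

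C1ql2 ranged from 36.1 to 370 CPM dorsally (median 196 CPM) and from 8.31 to 209 CPM ventrally (median 90.0 CPM). The dorsal over ventral ratio of C1ql2 within a mouse ran from 0.252 in mouse 23 to 23.1 in mouse 6, above 1 in 9 of 12 mice, and its log2 fold change was 1.19 ± 0.35 (adjusted p = 0.0235). Both ends of that range of ratios rest on a library that stood apart, the dorsal library of mouse 23 and the ventral library of mouse 6. With the mouse as a block the adjusted p of C1ql2 was 0.056 and the call was lost, while Prox1 (0.0404) and Dsp (0.00171) passed. Dsp ranged from 27.1 to 274 CPM dorsally (median 158 CPM) and from 6.23 to 109 CPM ventrally (median 36.6 CPM). Dsp was higher dorsally in 11 of 12 mice, with mouse 13 the exception (70.8 CPM dorsally and 108 CPM ventrally), and its log2 fold change was 1.89 ± 0.37 (adjusted p = 0.00108). For each of the 3 genes the dorsal and ventral ranges overlapped. The lines of the paired plot run down from dorsal to ventral in most mice for these genes and cross for the other 5.

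**Figure D3:**
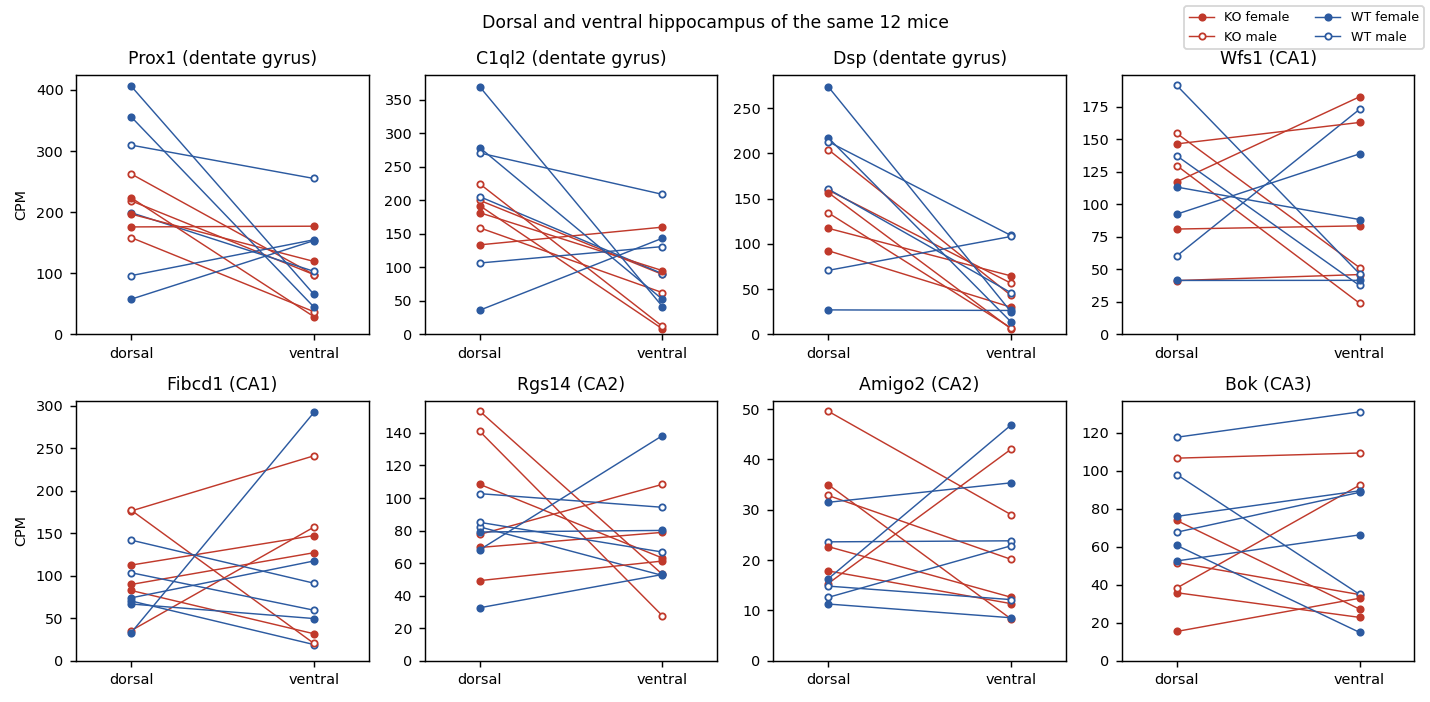
Each line joins the dorsal and the ventral hippocampus library of 1 mouse, in CPM, for each of the 8 genes (red KO, blue WT, filled female, open male). Prox1 and C1ql2 fall from dorsal to ventral in 9 of 12 mice and Dsp in 11 of 12, and the CA genes go either way.

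Female WT mice 11 and 24 had high dorsal and low ventral levels, and leaving out either ended the calls of Prox1 and C1ql2 with folds nearly as large. Without mouse 11 the log2 fold change was 0.91 for Prox1 (adjusted p = 0.0617) and 1.08 for C1ql2 (0.0621). Without mouse 24 it was 0.92 for Prox1 (adjusted p = 0.0561) and 1.02 for C1ql2 (0.0622), and Dsp was called in both fits. Without the dorsal library of mouse 23 and the ventral library of mouse 6 all 3 genes were called, at adjusted p of 0.005 for Prox1, 0.00279 for C1ql2 and 9.66e-05 for Dsp. With the dorsal libraries thinned to the median depth of the ventral libraries all 3 were called too, with log2 fold changes of 1.00, 1.16 and 1.88. Thinning evens out depth alone, and any other difference between the number series of the dorsal and ventral libraries stays. In females alone Dsp was called (2.41, adjusted p = 0.0226), and in males alone none of the 3 was, with log2 fold changes of 0.82, 1.08 and 1.40 for Prox1, C1ql2 and Dsp.

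Wfs1 had a dorsal over ventral log2 fold change of 0.38 ± 0.30, Fibcd1 of -0.22 ± 0.36, Rgs14 of 0.22 ± 0.23, Amigo2 of 0.09 ± 0.27 and Bok of 0.14 ± 0.27, with adjusted p from 0.418 to 0.862. The median ratio within a mouse was 0.984 for Wfs1, 1.05 for Fibcd1, 1.04 for Rgs14, 1.27 for Amigo2 and 0.937 for Bok, and the ratios of single mice were wide. Fibcd1, for example, was at 32.9 CPM dorsally and 292 CPM ventrally in mouse 24, and at 177 CPM dorsally and 20.4 CPM ventrally in mouse 10. Wfs1 was higher dorsally in mice 2, 10, 12, 13 and 23 and higher ventrally in the other 7.

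Other genes of the same fields were taken from fixed lists, which were chosen with earlier results of these data known. In this comparison 14.9% of all genes were called. Of 8 further dentate gyrus genes, 6 were higher dorsally: Lct (2.57 ± 0.35), Plk5 (1.66 ± 0.26), Sema5a (1.41 ± 0.27), Dock10 (0.91 ± 0.21), Stxbp6 (0.90 ± 0.23) and Glis3 (0.75 ± 0.26), where Lct is lactase and Plk5 a polo-like kinase family member. Trpc6, a cation channel (0.83 ± 0.30, adjusted p = 0.0649), and Tdo2, tryptophan dioxygenase (0.60 ± 0.35, adjusted p = 0.267), did not pass. The median of the 8 was 0.90, and that of all 13058 genes tested was 0.01. Of 3 further CA1 genes Mpped1 was lower dorsally (-0.74 ± 0.25), and of the 4 of 6 further CA2 genes that could be tested Cacng5, an AMPA receptor auxiliary subunit, was higher (0.93 ± 0.24). Of 5 further CA3 genes Socs2 was lower dorsally (-0.82 ± 0.19). With so few genes, the counts for the CA fields cannot be told apart from the share of all genes called. Of 6 genes listed for the ventral pole, 3 were lower dorsally: Trhr, the thyrotropin-releasing hormone receptor (-3.43 ± 0.40), Dcn, decorin (-1.94 ± 0.41), and Nr2f2, the transcription factor COUP-TFII (-1.29 ± 0.24). Without the dorsal library of mouse 23 and the ventral library of mouse 6, 7 of the 8 dentate gyrus genes were higher dorsally, with Trpc6 added, and 5 of the 6 ventral genes were lower, with Htr2c and Calb2 added.

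Some genes of other tissues and cell types also differed between the dorsal and ventral hippocampus, where 14.9% of all genes were called. The choroid plexus genes Ttr and Kl were higher dorsally (4.52 ± 1.21 and 1.41 ± 0.28). Clic6 of the same list was not called (2.70 ± 1.23, edgeR adjusted p = 0.139), and Folr1 and Kcnj13 could not be tested. Also higher were 1 of 3 thalamic genes (Prkcd, 1.77 ± 0.53), 1 of 6 oligodendrocyte genes (Mag, 0.86 ± 0.30) and 1 of 4 general neuronal genes (Rbfox3, 0.46 ± 0.11). Counts of 1 in lists this short cannot be told apart from the share of all genes called. The summed oligodendrocyte level ran from 1925 to 15364 CPM dorsally and from 1531 to 9338 CPM ventrally, with no gene of that list at 0. The astrocyte gene Slc1a3 (-0.38 ± 0.10) was lower dorsally, and none of the 4 cortical layer, 5 microglial or 3 endothelial genes was called; 0, 0 and 1 of these had an unadjusted p under 0.05. Their part in the difference of the dentate gyrus genes was not tested.

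Across mice the dentate gyrus genes rose and fell together within each hippocampal region. In the dorsal hippocampus (12 mice, log2(CPM + 1)) Pearson's r was 0.958 for Prox1 and Dsp (Spearman's rho 0.944), 0.949 for C1ql2 and Dsp (rho 0.881) and 0.931 for Prox1 and C1ql2 (rho 0.797). The two-sided permutation p of these r, from 100000 resamples, were 1e-05, 5e-05 and 2e-05, where 1e-05 is the smallest they can give, and those of rho were 3e-05, 0.00033 and 0.00298. Adjusted over the 56 pairs of members in both regions they were 0.00028, 0.0007 and 0.000373 for r, and 0.00084, 0.00546 and 0.0238 for rho. In the ventral hippocampus r was 0.947 for Prox1 and C1ql2 (rho 0.979), 0.906 for Prox1 and Dsp (rho 0.874) and 0.877 for C1ql2 and Dsp (rho 0.811). The permutation p of r were 1e-05, 9e-05 and 0.00023 (adjusted 0.00028, 0.00101 and 0.00184), and those of rho 1e-05, 0.00039 and 0.00205 (adjusted 0.00056, 0.00546 and 0.0191).

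Without the 2 mice farthest from the median of the gene named first, the 6 dentate gyrus r lay between 0.671 and 0.938. Within females they lay between 0.892 and 0.994, and within males between 0.794 and 0.983 (6 mice each). Without mouse 23 the dorsal r were 0.87 for Prox1 and C1ql2, 0.922 for Prox1 and Dsp and 0.855 for C1ql2 and Dsp. Within the 6 KO mice the dorsal r were lower, at 0.071, 0.669 and 0.281 in the same order, against 0.974, 0.982 and 0.998 in the 6 WT mice; the KO mice spanned 1.66-fold of Prox1 and the WT mice 7.04-fold, and the difference between the genotypes in r was not tested. Prox1 also followed the summed level of the 8 further dentate gyrus genes (r = 0.982 dorsally and 0.975 ventrally) and ran against the summed oligodendrocyte genes (r = -0.751 and -0.56). Its r was -0.74 dorsally and -0.0406 ventrally with the endothelial sum, and -0.518 dorsally and 0.758 ventrally with the astrocyte sum. These r are descriptions over 12 libraries that share depth and dissection. The scatter plots show the dentate gyrus pairs as narrow rising bands with mouse 23 at the bottom dorsally and mouse 6 at the bottom ventrally.

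**Figure D4:**
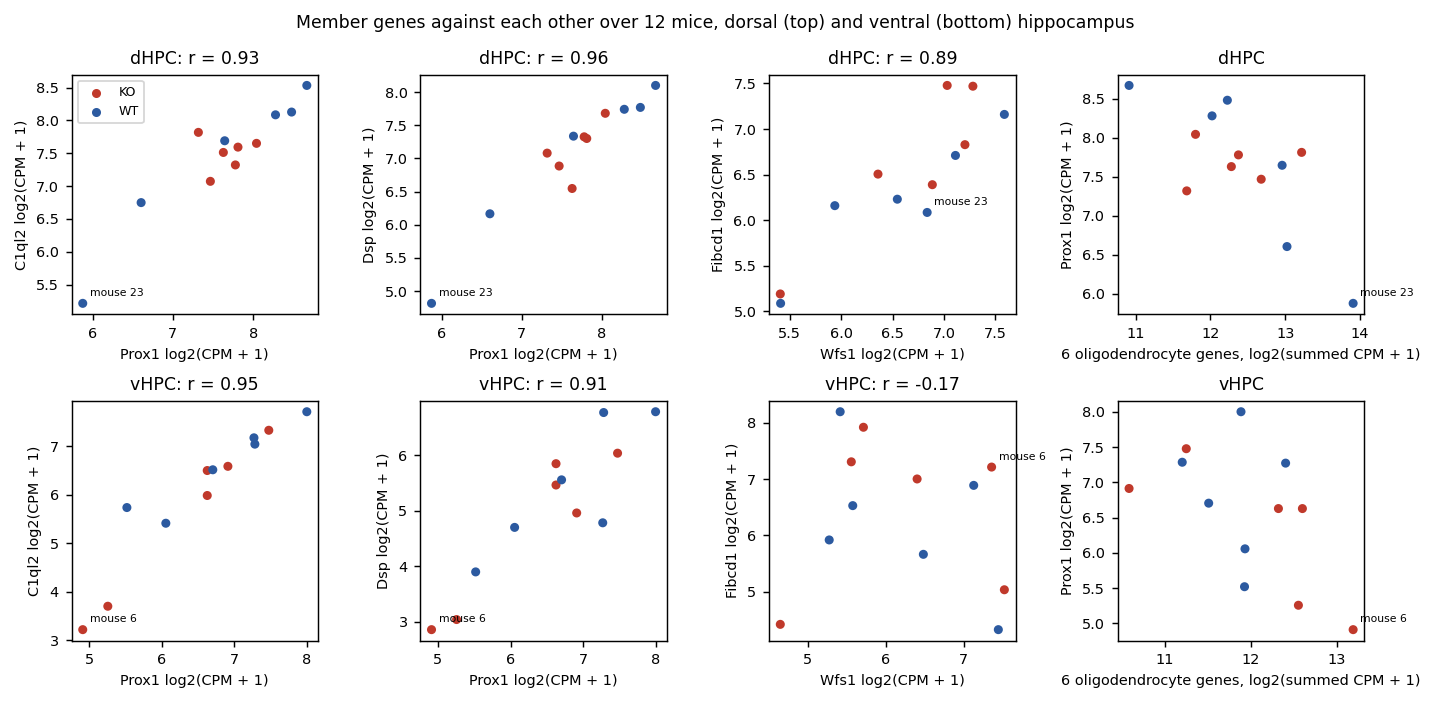
Each point is 1 mouse (red KO, blue WT), in the dorsal (top) and ventral (bottom) hippocampus; the axes are log2(CPM + 1) of the genes named, and in the last column the summed CPM of 6 oligodendrocyte genes on the same scale. Prox1 rises with C1ql2 (r = 0.93 and 0.95) and with Dsp (0.96 and 0.91), while Wfs1 and Fibcd1 rise together dorsally (0.89) and not ventrally (-0.17).

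Wfs1 and Fibcd1, both CA1 genes, rose together in the dorsal hippocampus, with r = 0.887 (permutation p = 0.00019, adjusted 0.00177) and rho = 0.846 (p = 0.00103, adjusted 0.0115). Leaving out the 2 mice farthest from the median of Wfs1 gave r = 0.697, and r was 0.885 within females and 0.913 within males. In the ventral hippocampus the r of the same pair was -0.169 (permutation p = 0.592, adjusted 0.990); the difference between the regions was not tested. Rgs14 and Amigo2, both CA2 genes, gave r = -0.0254 dorsally and -0.165 ventrally (adjusted p = 0.990 for both, permutation test). Among the pairs of genes from different fields, 23 in each region, 1 passed: Wfs1 and Bok in the ventral hippocampus, with r = -0.778 (permutation p = 0.00456, adjusted 0.0319), r = -0.786 without the 2 mice farthest from the median of Wfs1, and rho = -0.699 (p = 0.0136, adjusted 0.0774, which does not pass). In the dorsal hippocampus the r of Wfs1 and Bok was -0.368 (adjusted p = 0.769, permutation test). Bok followed the summed level of the 5 further CA3 genes (r = 0.846 dorsally and 0.844 ventrally), Wfs1 that of the 3 further CA1 genes (r = 0.779 and 0.573), and Amigo2 that of the CA3 genes ventrally (r = 0.811) but not dorsally (r = -0.0345), again as descriptions over 12 libraries each.

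Deletion of Acss2 was compared with WT in each region with both sexes in the fit and sex as a covariate, and none of the 8 genes was called in any of the 7 regions. All 8 could be tested in the dorsal hippocampus, ventral hippocampus, amygdala and dorsal striatum, 7 in the ventral striatum (not Dsp), 6 in the prefrontal cortex (not C1ql2 or Dsp) and 4 in the cortex (not C1ql2, Dsp, Fibcd1 or Amigo2). The prefrontal cortex had 1 male KO library. edgeR called 0.00702% of dorsal hippocampus genes and 0.00951% of ventral hippocampus genes. For the other regions the share was 0.0973% (prefrontal cortex), 0.00977% (cortex), 0.00675% (amygdala), 0.00702% (dorsal striatum) and 0.00721% (ventral striatum); in all but the prefrontal cortex this was 1 gene, Acss2. DESeq2's Wald test called 0 members in the 7 regions as well. An unadjusted p under 0.05 was seen for 1 member, Amigo2 in the dorsal hippocampus. In simulated libraries, randomly picked genes were given a log2 change of 1, each with its own mean and spread. Of these, 78.6% were called in the dorsal and 83.7% in the ventral hippocampus. The dorsal simulation tested 98 such genes beside 99 with a log2 change of 2, where the data had 1 called gene. More changed genes make the adjusted threshold easier to pass, so a gene that changes alone would be called less often. The rates do not hold for the members in particular, whose SE ran from 0.25 to 0.43 dorsally and from 0.28 to 0.55 ventrally. The rate for a member was not simulated.

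In the dorsal hippocampus Prox1 was at 206 ± 37.2 CPM in KO (lowest 158, median 208, highest 263; n = 6) and 237 ± 142 CPM in WT (lowest 57.7, median 254, highest 406; n = 6), a log2 fold change of -0.20 ± 0.40. WT libraries lay both above the highest and below the lowest KO library, and the ranges overlapped. C1ql2 was at 182 ± 32 CPM in KO and 211 ± 122 CPM in WT (-0.23 ± 0.41), and Dsp at 144 ± 38.7 and 160.4 ± 94.5 CPM (-0.18 ± 0.43). For the CA genes the log2 fold changes of KO over WT were 0.11 ± 0.36 for Wfs1, 0.50 ± 0.33 for Fibcd1, 0.39 ± 0.25 for Rgs14, 0.68 ± 0.31 for Amigo2 and -0.57 ± 0.33 for Bok. Amigo2 was at 28.9 ± 12.8 CPM in KO (15.3 to 49.6 CPM) and 18.3 ± 7.75 CPM in WT (11.3 to 31.5 CPM), with an unadjusted p of 0.0472 and an adjusted p of 1 in edgeR's test. Without the library of mouse 23 the log2 fold change of Amigo2 was 0.92 ± 0.28, with an adjusted p of 0.9999, and those of Prox1, C1ql2 and Dsp were -0.38, -0.42 and -0.37.

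In the ventral hippocampus Prox1 was at 93.1 ± 54.8 CPM in KO and 129.5 ± 76.1 CPM in WT, C1ql2 at 71.2 ± 57.2 and 111 ± 62.8 CPM, and Dsp at 34.7 ± 24.6 and 54.8 ± 43 CPM. Their log2 fold changes were -0.43 ± 0.40, -0.62 ± 0.50 and -0.51 ± 0.47, and -0.29, -0.42 and -0.39 without the library of mouse 6. Leaving out each mouse in turn gave -0.75 to -0.17 for Prox1, -1.04 to -0.35 for C1ql2 and -0.96 to -0.21 for Dsp. In males alone the values were -1.16 ± 0.34, -1.39 ± 0.43 and -1.32 ± 0.44, and in females alone 0.32 ± 0.53, 0.16 ± 0.67 and 0.62 ± 0.57. The edgeR p in males were 0.0041, 0.00584 and 0.00977 before adjustment and from 0.438 to 0.525 after it. In males the highest KO and lowest WT values were 97.9 and 103 CPM for Prox1 and 89.6 and 90.5 CPM for C1ql2. These groups of 3 mice lay just apart, while those of Dsp overlapped (56.6 and 46.1 CPM). Prox1 and C1ql2 varied together over the ventral libraries (r = 0.947), so these are not 2 independent observations. The share of all genes with male groups apart in this way was not computed. With both sexes in the fit, the log2 fold changes of the CA genes were -0.05 ± 0.40 for Wfs1, 0.30 ± 0.55 for Fibcd1, -0.30 ± 0.28 for Rgs14, -0.36 ± 0.40 for Amigo2 and -0.54 ± 0.38 for Bok (adjusted p from 0.981 to 0.999 over the 8 genes). Over both sexes together, KO and WT ranges overlapped for each of the 8 genes in all 7 regions, and those of Acss2 overlapped in none. None of the further dentate gyrus, CA1, CA2 or CA3 genes was called in either hippocampal region by edgeR; 1 CA2 gene dorsally and 1 CA3 gene ventrally had an unadjusted p under 0.05. In the amygdala, where Fibcd1 was at 355 and 133 CPM in 2 KO libraries, its log2 fold change was 1.46 ± 1.04 (adjusted p = 0.994), and -0.26 ± 0.25 without them.

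**Figure D5:**
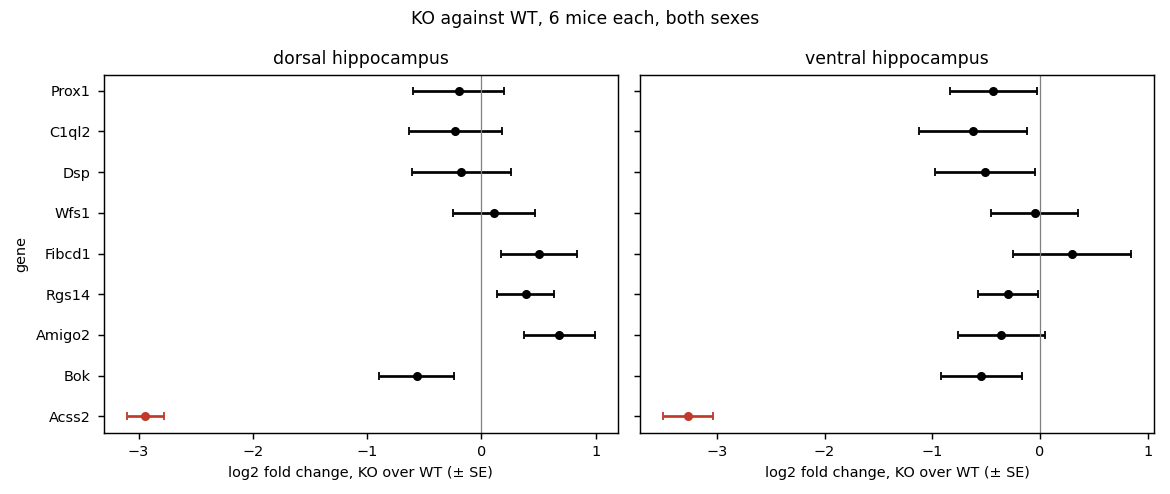
Points give the log2 fold change of KO over WT with its SE (bars) for the 8 genes and Acss2 in the dorsal and the ventral hippocampus (6 mice of each genotype). The 8 genes lie between -0.62 and 0.68, and Acss2 lies at -2.94 dorsally and -3.27 ventrally.

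Without the mouse as a block, the KO effect did not differ by the test between the dorsal and ventral hippocampus for any member (edgeR called 0% of 13058 genes; 0 members at an unadjusted p under 0.05; 0 with DESeq2). The largest difference was that of Amigo2, 1.01 ± 0.54 (edgeR adjusted p = 0.9998). With the mouse as a block, the Amigo2 difference was 0.95 ± 0.44, with an edgeR p of 0.0469 before adjustment, and it did not pass after adjustment. Between females and males the KO effect in the dorsal hippocampus gave differences from -0.79 to 0.69 (0% of 14485 genes called, and 0 members past 0.05 before adjustment). In the ventral hippocampus no gene was called either (0% of 10769 genes; 0 members with DESeq2). Before adjustment 3 members were past 0.05 there, Amigo2 (-2.03 ± 0.67), Wfs1 (1.73 ± 0.71) and Dsp (1.94 ± 0.84), each with an edgeR adjusted p of 0.72. The share of all genes past 0.05 before adjustment is not given here, so this count is not a result about the members.

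The ventral values behind these differences were as follows. Amigo2 was at 10.8 ± 2.22 CPM in female KO and 30.2 ± 19.6 CPM in female WT mice, and at 30.4 ± 11 CPM in male KO and 19.6 ± 6.47 CPM in male WT mice (n = 3 each). Female WT mouse 11, at 8.54 CPM, lay within the female KO range of 8.31 to 12.6 CPM, so the female groups overlapped. Wfs1 was at 143 ± 52.5 CPM in female KO and 89.6 ± 48.6 CPM in female WT mice, and at 40.5 ± 14.5 CPM in male KO and 85.8 ± 75.7 CPM in male WT mice. Dsp was at 33.7 ± 29.4 and 21.8 ± 6.89 CPM in female KO and WT mice, and at 35.6 ± 25.5 and 87.9 ± 36.2 CPM in male KO and WT mice. The male groups of Dsp overlapped as well, with a highest KO value of 56.6 CPM and a lowest WT value of 46.1 CPM.

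For each member, the 2 genes outside the list with the most similar profile over the 78 libraries were found by Pearson's r of log2(CPM + 1) among 11750 genes with a mean of at least 5 CPM. These r are descriptions, since libraries of a region and of a mouse are not independent. For Prox1 these were Maml2 (r = 0.904) and Ehd1 (0.890), for C1ql2 Ehd1 (0.932) and Tanc1 (0.908), and for Dsp Ehd1 (0.939) and Vwa3b (0.926). Ehd1, which encodes an endocytic recycling ATPase, was at 123 CPM on average in the dorsal and 89.0 CPM in the ventral hippocampus, and at 32.9 to 46.1 CPM in the other 5 regions. For Fibcd1 the nearest genes were Gm2115 (0.856) and Nr3c2, the mineralocorticoid receptor (0.820). The r of the nearest genes were lower for the remaining members: Sowaha (0.807) and Rin1 (0.787) for Rgs14, Arhgef4 (0.797) and Arhgef25 (0.794) for Bok, Dlg5 (0.733) and C530008M17Rik (0.710) for Amigo2, and Glce (0.728) and Filip1 (0.710) for Wfs1. Among the members themselves, the 3 dentate gyrus pairs had r of 0.904 to 0.923 over the 78 libraries, Fibcd1 had 0.663 to 0.740 with the dentate gyrus genes, and Wfs1 had -0.579 with Bok.

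The members are protein-coding genes on several chromosomes of GRCm38 (GENCODE M21): Bok at 93685660 to 93695764, C1ql2 at 120340582 to 120343174 and Prox1 at 190118035 to 190170714, all on chromosome 1; Fibcd1 on chromosome 2 at 31813290 to 31846005; and Wfs1 on chromosome 5 at 36966104 to 36989205. Dsp lies at 38151294 to 38198577 and Rgs14 at 55369732 to 55384687, both on chromosome 13, and Amigo2 on chromosome 15 at 97244125 to 97247287. The exons of 3 members share bases with an opposite-strand gene: Prox1 with Prox1os (133 of 8390 exonic bases), Dsp with Gm10129 (499 of 9659) and Amigo2 with Pced1b (58 of 3163). Whether the counting used strand is not given in the sources used here, so reads over these bases cannot be assigned; Prox1os itself averaged 2.31 CPM, Gm10129 0.0891 CPM and Pced1b 4.51 CPM over the 78 libraries.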

How the data were processed

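Poly(A) RNA-seq libraries of 7 brain regions from 12 mice were read as raw counts per gene symbol, as the authors deposited them in 2 tables. Per the submitters' processing notes, the tools named are STAR 2.5.2a, SAMtools 1.1, HTSeq 0.6.1, DESeq2 and R 4.0.2, with GRCm38/mm10; the annotation, strand setting and filters are not given in the sources used here. All columns of both tables were mapped to labelled samples. Levels are CPM by column total, with a pseudocount of 1 on the log2 scale.

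Differences were tested with edgeR 4.0.16 (quasi-likelihood, TMM, filterByExpr with a minimum count of 10 and a minimum total of 15) in R 4.3.3, with Benjamini-Hochberg adjustment over all genes tested and a threshold of 0.05; DESeq2 1.42.0 was an alternative. Fold changes are log2, with an SE taken as their size over the square root of the quasi-likelihood F. The steps were tested on simulated data. The members and gene lists were chosen with earlier results of these data known. Genes named are the 8 members, Acss2, the genes of the fixed lists and, for each member, the 2 most similar genes over all libraries. The labels say that the libraries of a number come from the same animal, so the mouse is a pairing across regions. The deviations of same-mouse dorsal and ventral libraries from their group means were little correlated, at -0.243 to 0.174 (mean 0.0438, 12 pairs, 7970 genes). Other alternatives were size factors, column totals, no low-count filter, each sex alone, thinned depth and leaving out each mouse. The female WT prefrontal cortex library of mouse 23 was also left out, and all 80 fold changes between regions then kept their direction and side of the threshold. The alternatives leaving out libraries that stood apart were chosen after seeing the data. A gene of the marker lists is not reported here.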

Additional observations from a re-analysis of the deposited data

Results flagged for a closer look

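In groups of 4 to 10 libraries of 1 region and genotype, a library was singled out where its gap to the nearest of the others was a large share of the range (Dixon's test at 95%). This held for 15 of 112 groups. The rate of 1 in 20 that the test allows by chance is for independent groups of normally distributed values. CPM values, some of which rest on few counts, need not be so distributed, and the groups share libraries. The 15 therefore cannot be set against that rate. Fibcd1 was at 355 CPM in the amygdala of female KO mouse 4 (nearest 133 CPM), the library with high choroid plexus genes described above, at 292 CPM in the ventral hippocampus of female WT mouse 24 (nearest 117 CPM) and at 31.6 CPM in the prefrontal cortex of male KO mouse 1 (nearest 4.88 CPM). Among the dentate gyrus genes, Prox1 was at 40.6 CPM in the ventral striatum of male KO mouse 10 (nearest 20.6 CPM), and the same library had 5.19 CPM of Dsp (nearest 1.24 CPM). Dsp was at 5.36 CPM in the ventral striatum (nearest 0.726 CPM) and 4.23 CPM in the prefrontal cortex (nearest 1.22 CPM) of male WT mouse 12. C1ql2 was at 13.2 CPM in the dorsal striatum of female KO mouse 5 (nearest 1.89 CPM) and at 1.29 CPM in the cortex of female WT mouse 11, which is below the floor of 3 counts.

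Wfs1 was at 165 CPM in the dorsal striatum of male KO mouse 2 (nearest 93 CPM). Rgs14 was at 87.7 CPM in the cortex (nearest 52.8 CPM) and 95.8 CPM in the prefrontal cortex (nearest 57 CPM) of male KO mouse 1. Mouse 1 gave the only male KO library of the prefrontal cortex, so its Fibcd1 and Rgs14 values there cannot be told apart from a difference of sex. Amigo2 was at 33.3 CPM in the ventral striatum of female KO mouse 4 (nearest 16.4 CPM) and at 75.9 CPM in that of male WT mouse 13 (nearest 27 CPM). Bok was at 31 CPM in the cortex of female WT mouse 11, where the nearest library had 56.8 CPM.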

How the results depend on the processing

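Of 919 fold changes of a member under an alternative other than leaving out a mouse, 875 kept their direction and side of the threshold, 9 lost a call, 11 gained a call and 24 changed sign. KO against WT in the cortex, prefrontal cortex and striatal regions was not counted. In the amygdala it was counted for Fibcd1 and Dsp alone. The KO effect between dorsal and ventral hippocampus was counted for Amigo2 alone, here and with a mouse left out. That of Wfs1, not counted, changed sign from -0.0073 to 0.099 with the mouse as a block. With a mouse left out, which was done for the comparisons within the hippocampus alone, 463 of 492 kept both, 4 lost a call and 25 changed sign. With the mouse as a replicate block, C1ql2 between dorsal and ventral hippocampus (1.17, adjusted p = 0.056) and Bok between dorsal hippocampus and prefrontal cortex (0.71, adjusted p = 0.068) lost their calls, and no other call changed. The count of members called between dorsal and ventral hippocampus was 3, against 5 with no low-count filter (Wfs1 and Rgs14 added), 1 in females, 0 in males and 1 to 3 when each mouse was left out. With no low-count filter 1 member, C1ql2, was called for KO in the ventral hippocampus (0.427% of all genes called), 1, Amigo2, for the difference of the KO effect between dorsal and ventral hippocampus (0.515%), and 6, all but Rgs14 and Bok, for its difference between the sexes in the ventral hippocampus (0.494%), against 0 in each with the filter; the cause was not tested.

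Of the values counted, those that changed sign between dorsal and ventral hippocampus were Wfs1 (-0.24) and Rgs14 (-0.24) in females, Fibcd1 (0.32) and Bok (-0.060) in males, and Amigo2 without the 2 libraries that stood apart (-0.079). For KO against WT they were, in dorsal hippocampus of males, Prox1 (0.13), C1ql2 (0.049), Dsp (0.22) and Wfs1 (-0.23), in ventral hippocampus of females, Prox1 (0.32), C1ql2 (0.16), Dsp (0.62), Wfs1 (0.72) and Fibcd1 (-0.54), in that of males, Amigo2 (0.57), and in the amygdala without mice 4 and 5, Fibcd1 (-0.26). Between regions they were Amigo2 in dorsal hippocampus against amygdala without mice 4 and 5 (0.014), Wfs1 in dorsal hippocampus against dorsal striatum with column totals (-0.0032) and no filter (-0.017) and against prefrontal cortex with column totals (-0.020), and, in ventral hippocampus against ventral striatum, Rgs14 with no filter (-0.023) and without the 2 libraries (-0.0098) and Amigo2 with no filter (-0.037) and the replicate block (-0.0043). None of these passed the test with all libraries, and the cause was not tested.

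Leaving out each mouse moved the dorsal over ventral value of Fibcd1 from -0.39 to 0.12, of Amigo2 from -0.041 to 0.30 and of Bok from -0.0096 to 0.25. It moved the KO value in dorsal hippocampus from -0.38 to 0.017 for Prox1, -0.42 to 0.039 for C1ql2, -0.37 to 0.088 for Dsp and -0.064 to 0.33 for Wfs1, and in ventral hippocampus from -0.32 to 0.42 for Wfs1 and -0.063 to 0.83 for Fibcd1. The female minus male KO effect moved, in dorsal hippocampus, from -0.075 to 0.68 for Fibcd1, -0.58 to 0.046 for Rgs14 and -0.88 to 0.38 for Bok, and in ventral hippocampus from -0.50 to 0.48 for Rgs14. Depth limits the low levels: in the cortex, C1ql2 and Dsp were within the floor of 3 counts.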
